A study of Mus musculus with 15 samples.

Results

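The 76 genes that encode the protein subunits of the cytosolic ribosome were examined among the 20207 mouse genes measured by mRNA-seq. Members were taken by gene symbol (Rpl or Rps with a number and an optional a or x, plus Rplp0, Rplp1, Rplp2 and Rpsa), and Rps27a was left out because its transcript also encodes ubiquitin. Of these, 46 belong to the large (60S) subunit and 30 to the small (40S) subunit. All 15 samples were NIH3T3 cells, a mouse fibroblast line, stably expressing DD-sfGFP, which is superfolder GFP joined to a destabilizing domain (DD). The ligand Shield-1 (S1) stabilizes the folded state of the DD, which without S1 moves between folded and unfolded states. The transgene was introduced with the PiggyBac transposon and the cells were sorted for high GFP, and whether the sorted line was a single clone is not given in the sources used here. There were 5 cont samples in medium with S1 (time 0, stress none), 3 DD 45min, 3 DD 135min and 4 DD 405min samples, named by the time after S1 was removed. No label says that replicates came from separate cultures, so p-values measure only the spread between these samples. The comparisons ask whether the transcripts of the ribosome change once this fusion protein unfolds inside the cell.

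Each ribosome carries its proteins in defined proportion, and their mRNAs are among the most abundant in growing cells. Most of these mRNAs begin with a terminal oligopyrimidine (TOP) tract, a run of C and T bases at the transcription start through which mTOR signalling and LARP1 control their translation, so that synthesis of ribosomal proteins can change without a change in mRNA level. When ribosome assembly is disturbed, free Rpl5 and Rpl11 bind Mdm2, the ubiquitin ligase of p53, and p53 accumulates. Ribosomal protein genes also have many processed pseudogenes, so reads can be split between copies or left out by an aligner, and the level of a single member is uncertain for that reason.

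Sequences from near the annotated starts show how far the longest pyrimidine run varies among members whose transcripts are described in detail below. Those of the 6 genes past the threshold at 405 min and of Rpl11, Rplp0 and Rplp2 are printed. RefSeq promoter windows (GRCm38.p6, 250 bases before to 50 bases after each annotated start) matched 56 of the 76 members. Capitals mark the longest run of C and T found within 50 bases of either side of the start, read 5′ to 3′ on the gene's strand. The start itself is not marked, so the length of a run does not show whether a transcript begins with a TOP tract.
Rpl11 (chr4:136053358-136053387, minus strand): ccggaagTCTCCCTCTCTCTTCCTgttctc
Rpl34 (chr3:130730330-130730359, minus strand): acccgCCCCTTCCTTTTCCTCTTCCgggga
Rps19 (chr7:24884622-24884651, plus strand): accccgtcgTTCCCTTTCCCCTggctggca
Rps9 (chr7:3704024-3704053, plus strand): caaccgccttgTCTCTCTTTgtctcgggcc
Rplp2 (chr7:141447636-141447665, plus strand): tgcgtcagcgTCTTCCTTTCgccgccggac
Rplp0 (chr5:115559466-115559495, plus strand): aggaccgcctggTTCTCCTataaaaggcac
Rps13 (chr7:116334161-116334190, minus strand): tgagtggcgtcaCTTCCTgtgcggcttgat
Rps3 (chr7:99483739-99483768, minus strand): cgcaaaacttcaTTTCCCatgcaaaacttc
Rps28 (chr17:33824567-33824596, minus strand): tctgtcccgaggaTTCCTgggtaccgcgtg
The longest run measured 20 bases in Rpl34, 17 in Rpl11, 13 in Rps19, 10 in Rplp2, 9 in Rps9, 7 in Rplp0, 6 in Rps13, 6 in Rps3 and 5 in Rps28, so 4 of these 9 fell short of 8 bases. A run of at least 8 C or T bases was found in 48 of the 56 matched members (85.7%) and in 10614 of all 27025 genes with a window (39.3%). The letters CCGGAAG, or CTTCCGG on the other strand, a core bound by ETS-family factors, were present somewhere in the window of 23 of the 56 members (41.1%) and of 9.9% of all genes. A match of letters describes the window and does not show that a factor bound there.

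Total counts per sample ranged from 6652539 (cont replicate 3) to 30258404 (DD 45min replicate 1). The samples fell into 2 library sets that the labels do not name: set 2 held cont replicate 2, DD 45min replicate 3 and DD 405min replicates 1, 2 and 4, and set 1 held the other 10 samples, including all 3 DD 135min samples. The slope of log2 CPM (counts scaled to the library total) on the GC content of the coding sequence, per 10 percentage points, lay between -1.373 and -0.82 in set 1 and between -0.621 and -0.235 in set 2. Set 2 is 1 of 5 cont samples and 3 of 4 DD 405min samples, so the pooled DD 405min comparison mixes time with library set, and values are given below with and without the set in the model. Within set 1, cont replicate 3 was the shallowest library and lay apart from the other cont samples for many members. Summed fibroblast markers (Col1a1, Col1a2, Col3a1, Vim, Fn1 and Pdgfrb) reached 10679 to 17721 CPM, against at most 2.25 CPM for epithelial and 3.30 CPM for endothelial markers.

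In cont cells the ribosomal protein transcripts spanned a wide range of length-corrected levels. The highest mean RPKM (reads normalized for gene length and sequencing depth) was that of Rpl41, which encodes a very short large subunit protein, at 3059 ± 947 (SD, n = 5). Rps12 followed at 2975 ± 890, then Rps20 at 2118 ± 469, Rpl39 at 2085 ± 622 and Rpl23a at 2060 ± 705 RPKM. These 5 neighbours in the order did not differ beyond their spread. Among the lowest were Rpl27 (0.25 ± 0.27), Rpl26 (0.69 ± 1.04), Rps16 (1.07 ± 0.82) and Rps23 (1.14 ± 0.64 RPKM), although the ribosome needs each of these proteins. In all, 6 of 76 members stayed under 10 CPM in all 15 samples, these genes and Rpl30 among them. Of the 6, 5 members, including Rpl26, Rpl27, Rpl30 and Rps16, had no count in at least 1 sample and at most 183 counts in any sample, and were not tested. The other 71 members, 42 of the large and 29 of the small subunit, entered the tests among 10276 genes.

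Counts assigned to ribosomal protein genes made up a similar fraction of the libraries at each time. Their share of all counts was 9.20%, 8.04%, 8.77%, 9.35% and 8.66% in cont replicates 1 to 5. It was 9.45%, 8.89% and 8.30% at 45 min, 9.14%, 8.56% and 9.34% at 135 min, and 7.87%, 8.29%, 9.40% and 8.43% at 405 min. All groups overlapped, and the group means were 8.80% ± 0.52 (SD, n = 5), 8.88% ± 0.57 (n = 3), 9.01% ± 0.40 (n = 3) and 8.50% ± 0.65 (n = 4). The 3 lowest samples at 405 min were those of library set 2, whose 5 samples ranged from 7.87% to 8.43%, against 8.56% to 9.45% in the 10 samples of set 1. The only DD 405min sample in set 1 had 9.40%, beside 8.66% to 9.35% in the 4 cont samples of that set. Counting error was small beside these differences, since the widest 95% Wilson interval of a share spanned 0.043 percentage points, and such intervals cover counting error only. In bulk samples, fewer cells and less RNA per cell cannot be told apart.

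**Figure D1:**
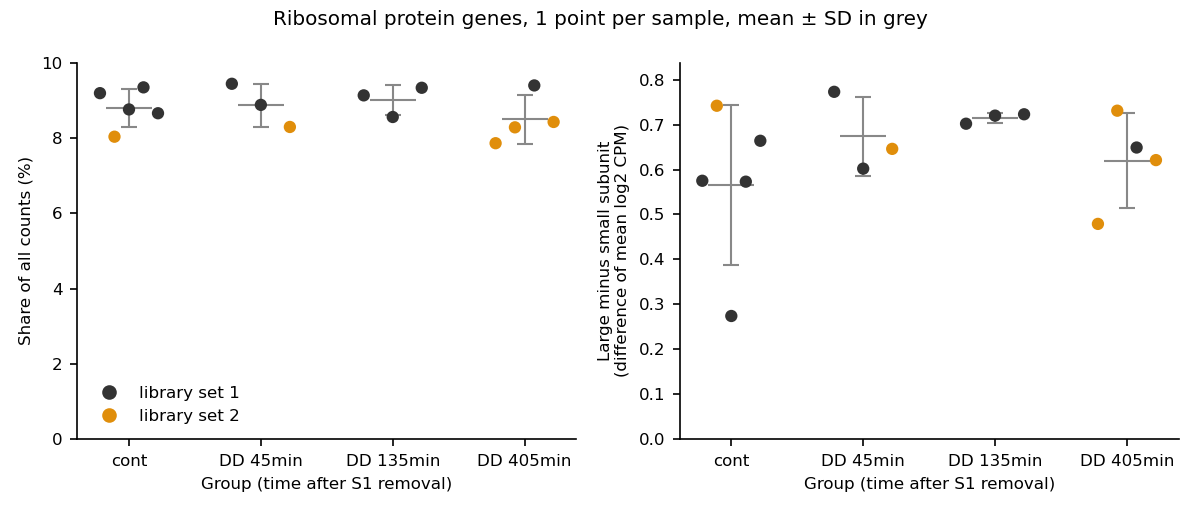
Share of all counts assigned to the 76 ribosomal protein genes (left, percent) and difference between the mean log2 CPM of 42 large and 29 small subunit genes (right), 1 point per sample, with the group mean and SD in grey. On the left, the group means lie between 8.50% and 9.01%, and the samples of library set 2 (orange) are the lowest of their groups. On the right they are not, and the cont sample of set 2 is the highest of its group.

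Over both library sets, the balance of large and small subunit genes overlapped between all groups. The mean log2 CPM of large subunit members minus that of small subunit members was 0.57 ± 0.18 (SD, n = 5) in cont, 0.67 ± 0.09 (n = 3) at 45 min, 0.71 ± 0.01 (n = 3) at 135 min and 0.62 ± 0.10 (n = 4) at 405 min. The cont samples read 0.57, 0.74, 0.27, 0.57 and 0.66, so cont replicate 3 alone lay below all the other samples. The DD 405min samples read 0.48, 0.73, 0.65 and 0.62, inside the range of cont. Within library set 1, the DD 135min samples read 0.70, 0.72 and 0.72, above the cont samples of that set (0.27 to 0.66). The DD 45min samples of set 1 read 0.77 and 0.60, and its DD 405min sample 0.65. Taken as a median over members, DD 135min (0.24 to 0.305) and cont (-0.105 to 0.242) overlapped within set 1. These differences between groups were not tested. The large minus small values are not corrected for length and describe counts, not molecules.

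No ribosomal protein gene passed the threshold at 45 or 135 min. In edgeR's quasi-likelihood test with group as the only term, 0 of 71 members had an adjusted p-value under 0.05 at 45 min, as did 0% of all tested genes, and 0 members had an unadjusted p under 0.05, against 3.55% of all genes. At 135 min the count was again 0 of 71, against 1.46% of all tested genes, with 2 members (and 11.9% of all genes) under an unadjusted p of 0.05. DESeq2 also called 0 members at both times, against 0.0584% and 4.18% of all genes. The median log2 fold change of the members was -0.02 at 45 min and 0.04 at 135 min, and that of all tested genes was 0.02 and -0.06. With library set in the model, the members called were again 0 of 71 at 45 min (0.0389% of all genes) and 0 of 71 at 135 min (7.93% of all genes), with 5 and 10 members under an unadjusted p of 0.05 (9.63% and 28.1% of all genes). In that model the 95% intervals of 69 of 71 members at 45 min and 68 of 71 at 135 min lay inside a log2 fold change of ±1, and those of 35 and 33 lay inside ±0.5. Of 4 genes used to check the treatment, 3 passed at 135 min with group only: Mdm2, a p53 target, rose by 2.62 (SE 0.19, adjusted p = 6.18e-06), Cdkn1a, which encodes the p53-induced cell cycle inhibitor p21, by 2.29 (SE 0.25, adjusted p = 0.000218), and Hmox1, an oxidative stress gene, by 3.09 (SE 0.30, adjusted p = 5.4e-05) on the log2 scale. Ubb, a polyubiquitin gene, read 0.45 (SE 0.18, adjusted p = 0.31), and 0.55 (SE 0.11, adjusted p = 0.00857) with the set, when all 4 passed.

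The widest estimate at 135 min belonged to a gene with almost no reads. Rps23, a protein of the decoding centre, had a log2 fold change of -2.15 (SE 0.78, adjusted p = 0.257) and rested on 6, 6 and 11 counts at 135 min beside 14, 15, 29, 13 and 21 in cont. Next to it in the fit with group only, Rplp2 stood at -1.25 (SE 0.79, adjusted p = 0.578). With library set in the model, Rplp2 read -0.28 (SE 0.22).

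At 405 min, 6 of 71 members (8.45%) passed the threshold with group as the only term, fewer than the 23.4% of all tested genes that did. Rps3, Rps9, Rps19 and Rps28 were higher and Rps13 and Rpl34 were lower, so 5 of the 6 belong to the small subunit. The background was 9.99% of all genes for higher and 13.4% for lower calls. The median over members was -0.14, with -0.14 for the large and -0.19 for the small subunit, and that over all genes was 0.00. An unadjusted p under 0.05 was reached by 27 members and 41.1% of all genes. DESeq2 called 9 members higher and 10 lower, against 33.2% of all genes. Once library set was in the model, 0 of 71 members passed, against 13.0% of all genes, and 5 members had an unadjusted p under 0.05, against 28.1% of all genes. The count with group only turned on single libraries. It was 15 higher and 21 lower without cont replicate 2 (48.5% of all genes) and 11 higher and 19 lower without DD 405min replicate 3 (34.7% of all genes). It was 0 without cont replicate 4, DD 405min replicate 1 or DD 405min replicate 4, when 13.5%, 9.43% and 9.33% of all genes passed.

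Rps3 and Rps9 sit with Rps2 at the channel where mRNA enters the small subunit. Rps3 (mm9 chr7:106626407-106632219) measured 93.0, 246, 81.6, 108 and 85.6 CPM in cont, 145, 105 and 321 CPM at 45 min, 130, 114 and 119 CPM at 135 min, and 445, 252, 121 and 330 CPM at 405 min. Every sample above 200 CPM was of library set 2, and the DD 405min sample of set 1 lay above the 4 cont samples of set 1 but within the range of DD 45min and DD 135min. The log2 fold change at 405 min was 1.13 (SE 0.37, adjusted p = 0.0407, edgeR), and 0.40 (SE 0.17, adjusted p = 0.123) with library set in the model. Rps9 (mm9 chr7:3655643-3658499) measured 654, 945, 518, 646 and 696 CPM in cont and 1116, 1031, 783 and 1084 CPM at 405 min. The 3 high DD 405min samples exceeded all cont samples, while the DD 405min sample of set 1 lay below the cont sample of set 2. Rps9 was higher by 0.43 (SE 0.15, adjusted p = 0.0479), and by 0.22 (SE 0.11, adjusted p = 0.202) with the set. Rps2 missed edgeR's threshold at 0.77 (SE 0.29, adjusted p = 0.0651), passed with DESeq2 (0.76, adjusted p = 0.0402) and read 0.24 (SE 0.14) with the set.

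Rps19, a small subunit protein mutated in Diamond-Blackfan anaemia, an inherited failure of red cell production, measured 265, 350, 204, 243 and 217 CPM in cont and 503, 343, 339 and 426 CPM at 405 min. All DD 405min samples lay above the 4 cont samples of set 1, and cont replicate 2, of set 2, fell between them. The log2 fold change was 0.54 (SE 0.16, adjusted p = 0.0271), and 0.40 (95% interval 0.08 to 0.72, adjusted p = 0.0938) with library set, the lowest adjusted p of any member in that model. Rps19 (mm9 chr7:25669733-25674821) gave 0.44 within set 1 and 0.29 within set 2. Rps28 (mm9 chr17:33959984-33961443), a small subunit protein near the mRNA exit, followed the same order, with 375, 596, 216, 385 and 425 CPM in cont and 747, 595, 548 and 735 CPM at 405 min. Its log2 fold change was 0.62 (SE 0.19, adjusted p = 0.0305), and 0.44 (SE 0.17, adjusted p = 0.105) with the set. At 45 min Rps19 measured 353, 247 and 356 CPM and Rps28 573, 413 and 596 CPM. At 135 min they measured 308, 234 and 297 CPM and 517, 427 and 430 CPM. For both genes, DD 45min replicate 1, of set 1, exceeded the DD 405min sample of set 1. All DD 135min samples of Rps28 lay above the cont samples of set 1. In the added fit with library set and without cont replicate 3, Rps28 (0.35, SE 0.12, adjusted p = 0.0433) and Rplp0 (0.33, SE 0.11, adjusted p = 0.0391) passed the threshold, as did 22.6% of all genes.

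Rps13 and Rpl34 were the members that fell at 405 min. Rps13 (mm9 chr7:123475021-123477704), a small subunit protein, measured 1552, 668, 2192, 1750 and 1225 CPM in cont and 616, 741, 1159 and 637 CPM at 405 min. Every DD 405min sample lay below the set 1 cont samples, and the cont sample of set 2 stood among the DD 405min samples of its own set. Its log2 fold change was -1.05 (SE 0.34, adjusted p = 0.0404), -0.37 (SE 0.20, adjusted p = 0.266) with the set, and 0.01 within set 2 alone. Rpl34 (mm9 chr3:130429755-130432222), a large subunit protein, measured 956, 535, 1679, 1066 and 685 CPM in cont and 490, 530, 706 and 523 CPM at 405 min. The groups overlapped, since the DD 405min sample of set 1 exceeded cont replicates 2 and 5. The log2 fold change was -0.96 (SE 0.31, adjusted p = 0.0388), and -0.45 (SE 0.26, adjusted p = 0.28) with the set. The summed level of 3 haematopoietic markers (Ptprc, Cd68 and Csf1r) also moved at this time, from 0 to 3.31 CPM in cont to 5.53 to 7.75 CPM at 405 min, with none of the 3 at 0 in every sample of a group. By group means, this rise lay in Cd68 and Csf1r. Mean Ptprc was below both of them in every group, and was lower at 405 min than at 45 or 135 min. The part of these markers in these results was not tested.

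**Figure D2:**
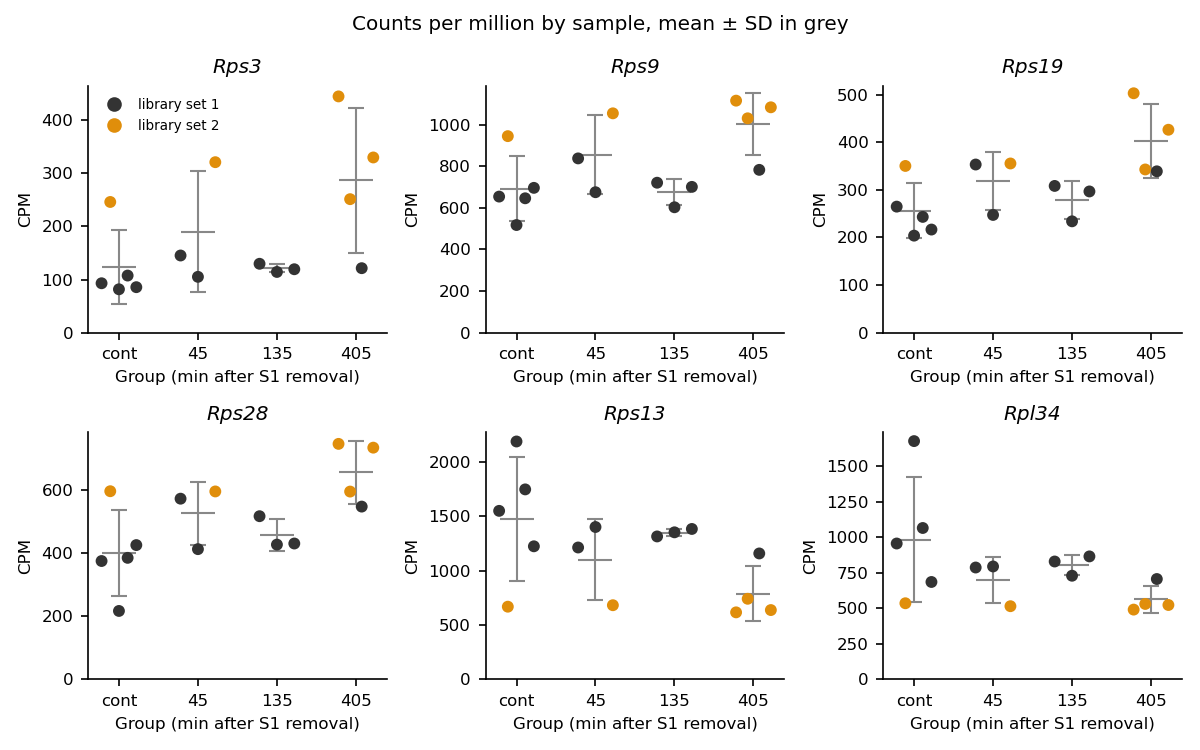
CPM by sample for the 6 ribosomal protein genes past the threshold at 405 min with group as the only term, with the group mean and SD in grey. In each panel the library set 2 samples (orange), which include 1 of 5 cont and 3 of 4 DD 405min samples, stand on the same side of the set 1 samples (black) of their group or at its edge.

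With library set in the model, the time course of the members was narrow at 405 min. All 71 log2 fold changes lay between -0.45 (Rpl34) and 0.44 (Rps28), and all were smaller than 0.5 in size. The 95% intervals of 69 of 71 lay inside ±1 and those of 36 inside ±0.5. The median was 0.04 for the members and -0.01 for all genes, with 0.05 for the large and 0.04 for the small subunit. Within set 1 and within set 2, taken alone, 0 members passed at 405 min, against 2.11% and 4.43% of all genes, with 2 and 0 members under an unadjusted p of 0.05. Set 1 holds only 1 DD 405min sample and set 2 only 1 cont sample.

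**Figure D3:**
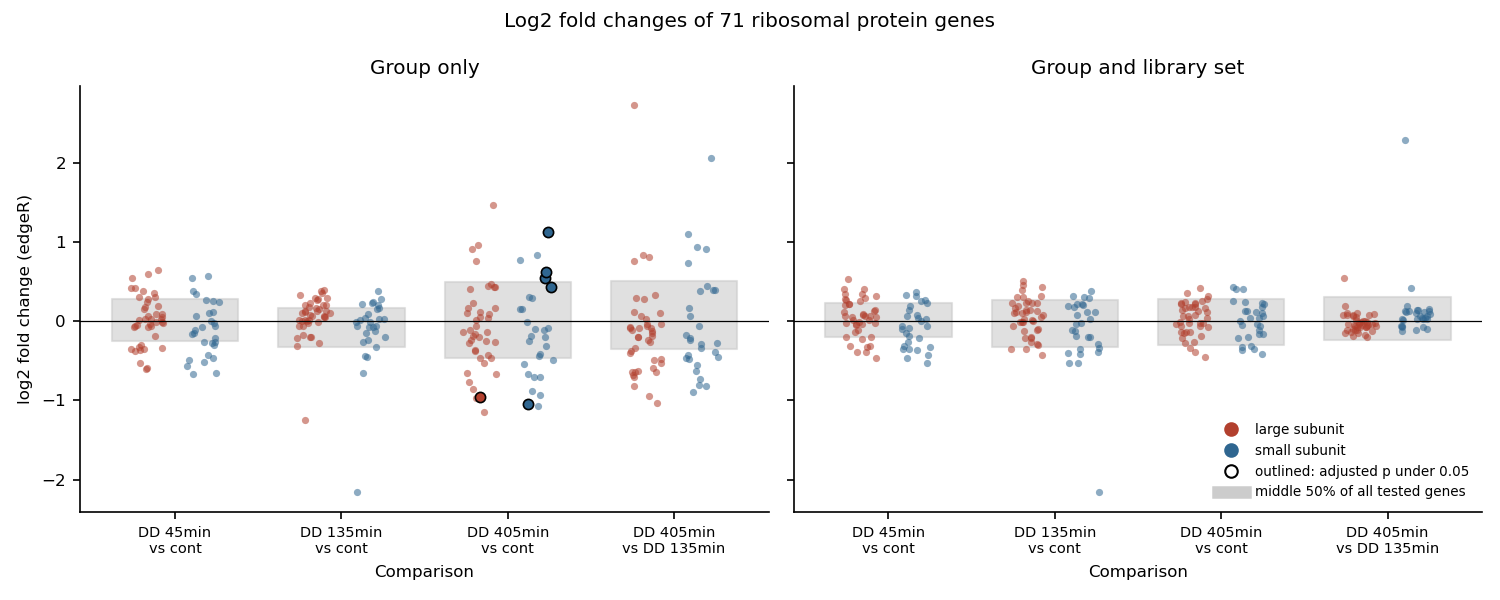
Log2 fold changes of the 71 tested ribosomal protein genes in each comparison, fitted with group only (left) and with group and library set (right). Points are genes, outlined points have an adjusted p under 0.05, and grey bands hold the middle 50% of all tested genes. The 6 outlined genes at 405 min are outlined only on the left.

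Rpl5, Rpl11 and Rpl23, the large subunit proteins that bind Mdm2, did not pass the threshold at any time in either edgeR model or with DESeq2, although Rpl11 passed at 405 min with group only once cont replicate 2 was left out (-0.57, adjusted p = 0.0389). Rpl5 measured 2150, 2457, 1428, 2340 and 2337 CPM in cont, 2528, 2234 and 2359 CPM at 45 min, 2554, 2351 and 2367 CPM at 135 min, and 2054, 2676, 2569 and 2653 CPM at 405 min. Apart from cont replicate 3, the samples of all groups overlapped. Its log2 fold change with library set in the model was 0.19 at 135 min (95% interval -0.10 to 0.48) and 0.14 at 405 min (-0.16 to 0.44). Rpl11 measured 1180, 934, 1792, 1190 and 805 CPM in cont, 989, 1040 and 896 CPM at 45 min, 1053, 939 and 1117 CPM at 135 min, and 877, 967, 963 and 967 CPM at 405 min. Here cont replicate 3 was the highest of all, the reverse of its place for Rpl5. Rpl11 read -0.26 at 135 min (-0.71 to 0.19) and -0.26 at 405 min (-0.74 to 0.22), and Rpl23 read 0.03 (-0.20 to 0.26) and -0.03 (-0.27 to 0.21).

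The stalk proteins Rplp0, Rplp1 and Rplp2 recruit the translation factors that hydrolyse GTP, and they did not move alike between libraries. Rplp2 measured 33.7, 202, 32.6, 25.7 and 31.7 CPM in cont, 57.1, 21.6 and 237 CPM at 45 min, 26.8, 25.7 and 25.2 CPM at 135 min, and 265, 230, 39.0 and 220 CPM at 405 min. Every sample above 200 CPM was of set 2 and every sample below 60 CPM of set 1, in all groups. Rplp2 gave 1.47 at 405 min with group only (SE 0.69, adjusted p = 0.123) and 0.26 (SE 0.22, adjusted p = 0.481) with the set. Rplp0 measured 1359, 3512, 773, 1325 and 1633 CPM in cont and 4364, 3531, 2042 and 4254 CPM at 405 min, and its log2 fold change was 0.96 (SE 0.34, adjusted p = 0.0504), or 0.42 (SE 0.17, adjusted p = 0.107) with the set, while DESeq2 called it (0.95, adjusted p = 0.0218). Rplp1 stayed between 1536 and 2145 CPM in all 15 samples and read -0.12 (SE 0.13) at 405 min.

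Proteins of the exit tunnel and its rim, where the new chain leaves the ribosome, were 8 members: Rpl4, Rpl17 and Rpl39 line the tunnel, and Rpl19, Rpl23a, Rpl26, Rpl31 and Rpl35 surround its mouth. Of the 7 tested, 0 passed at any time in either edgeR model, and DESeq2 called Rpl39 at 405 min (-1.18, adjusted p = 0.0168). At 405 min their log2 fold changes ran from -1.15 (Rpl39, SE 0.40, adjusted p = 0.0512) to 0.23 with group only, and from -0.39 to 0.17 with library set. Rpl39 measured 1870, 790, 3418, 2068 and 1492 CPM in cont and 666, 865, 1538 and 793 CPM at 405 min, with the cont sample of set 2 beside the DD 405min samples of set 2. Rpl23a had the same layout, with 1287 CPM in cont replicate 2 and 2575 to 3104 CPM in the other 4 cont samples.

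Rps10 and Rps20, which are ubiquitylated when ribosomes collide, did not pass edgeR's threshold, at 0.15 (SE 0.17) and -0.70 (SE 0.28, adjusted p = 0.076) at 405 min and 0.12 and -0.20 with the set, and DESeq2 called Rps20 (-0.73, adjusted p = 0.0442). Rps6, the substrate of S6 kinase, ranged from 1870 to 2654 CPM over all samples. Its log2 fold change with library set was -0.09 at 45 min, -0.03 at 135 min and 0.00 at 405 min (95% interval -0.23 to 0.24). Of other Diamond-Blackfan anaemia genes, Rps24, Rps26 and Rpl35a gave -0.54, -1.08 and -0.96 at 405 min and -0.06, -0.33 and -0.22 with the set, and none of these 3 passed in either edgeR model. DESeq2 called Rps26 (-1.10, adjusted p = 0.0189) and Rpl35a (-0.99, adjusted p = 0.0293). Rpl3, Rpl22 and Rpl36a, which have a paralog elsewhere in the genome, gave 0.43, -0.65 and -0.28 with group only and 0.22, -0.02 and -0.07 with the set, and did not pass in either edgeR model or with DESeq2. Rpsa, which also serves as a laminin receptor, gave 0.83 (SE 0.33, adjusted p = 0.0763) and 0.23 (SE 0.17) with the set, and passed with DESeq2 (0.82, adjusted p = 0.0464).

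Between 135 and 405 min, 0 of 71 members passed, against 5.06% of all tested genes, and 17 members had an unadjusted p under 0.05, against 27.6% of all genes. All DD 135min samples are of library set 1, and 3 of the 4 DD 405min samples are of set 2. DESeq2 called Rplp2 and Rps27 higher, against 14.6% of all genes. With the set in the model 0 of 71 passed (3.68% of all genes), 1 member had an unadjusted p under 0.05 (18.0% of all genes), and the members' median was 0.00. The DD 135min and DD 405min comparisons with cont share the same cont samples, so their values are set side by side only.

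More members passed the threshold between the library sets than in any comparison of times. In the fit with group and set, 13 members were higher in set 2 and 34 were lower at an adjusted p under 0.05, 47 of 71, against 50.1% of all tested genes (26.0% higher and 24.1% lower). The sets were drawn from the same counts, so these counts are a description. The median member was lower in set 2 by a log2 fold change of -0.28 (-0.22 for the large and -0.36 for the small subunit), with all genes at 0.00. The widest differences were those of Rplp2 (2.51, SE 0.19) and of Rpl35a (-1.32, SE 0.15), Rpl39 (-1.32, SE 0.23), Rps3 (1.30, SE 0.14) and Rps29 (-1.26, SE 0.17), the last a zinc-binding small subunit protein. Rpl8 (1.22), Rpl18 (1.10), Rpsa (1.10) and Rplp0 (1.09) were also higher, and Rps26 (-1.22), Rpl22 (-1.18) and Rpl23a (-1.17) lower, in set 2. Members of one complex thus stood on both sides.

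**Figure D4:**
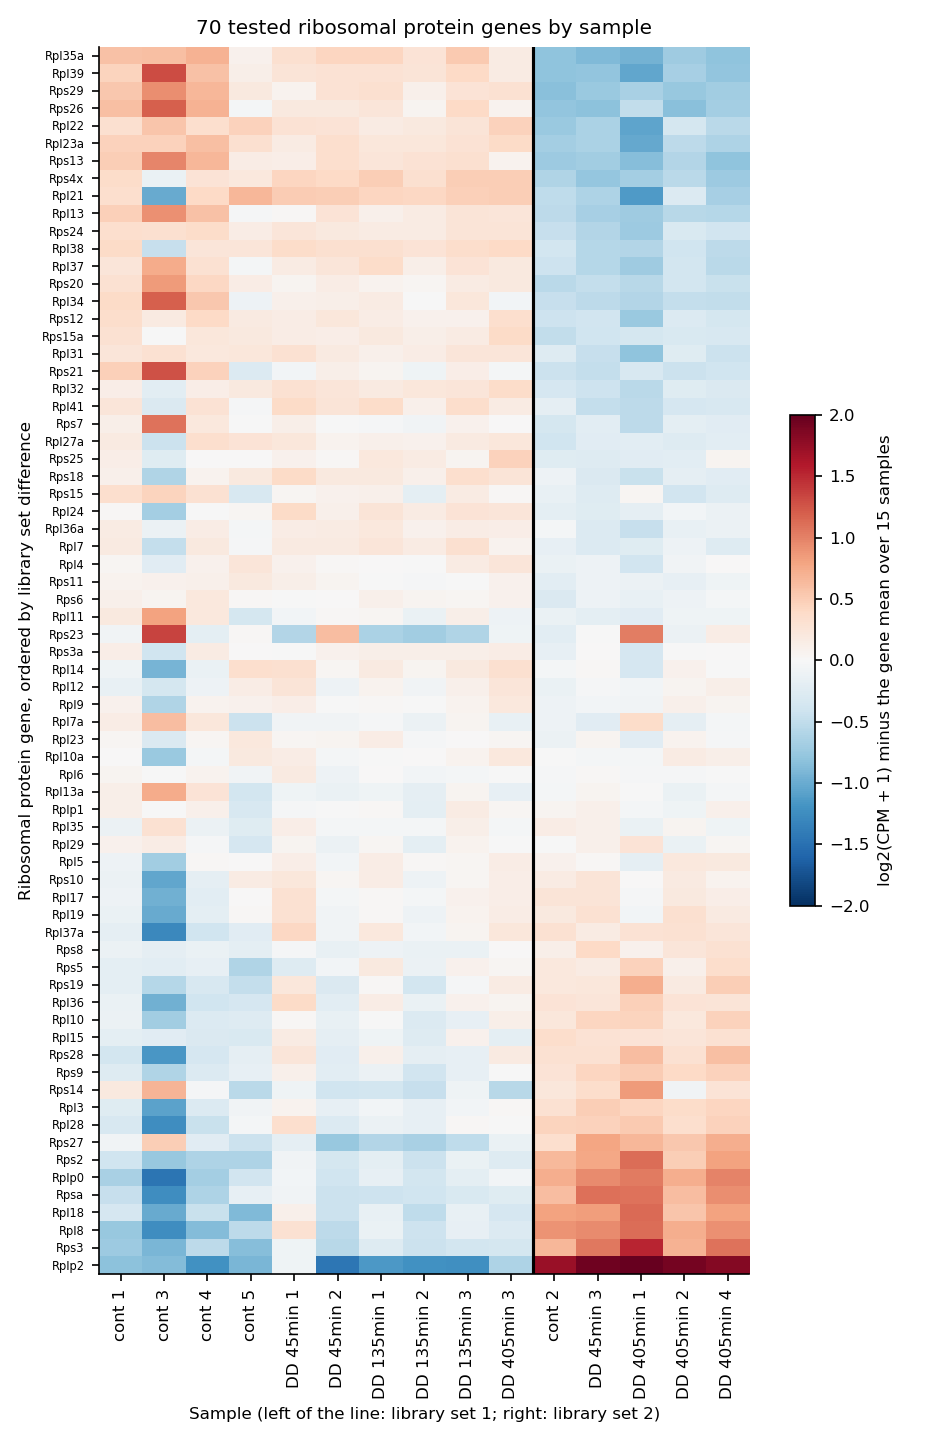
Log2(CPM + 1) of 70 tested ribosomal protein genes in each sample minus the gene's mean over 15 samples, with genes ordered by the library set difference and the samples of set 1 to the left of the line. Rows at the top are low and rows at the bottom high in all 5 set 2 samples, whatever their time, and cont replicate 3 stands apart within set 1.

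Across members, the set difference went with the GC content of the coding sequence. Over the 70 tested members with a coding sequence in the annotation, Pearson's r was 0.47 and Spearman's rho 0.48, and over 9755 tested genes the values were 0.52 and 0.57. These are descriptions across genes measured in the same libraries, and GC content was used to draw the sets. Median coding GC was 52.6% in the members and 52.2% in the tested genes, while the median coding length was 471 bases in the members and 1419 bases in the tested genes. GC content did not order every member: Rps29 (58.5% GC) and Rpl13 (58.2% GC) were lower in set 2 by -1.26 and -1.04, and Rpl8 (58.7% GC) was higher by 1.22.

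**Figure D5:**
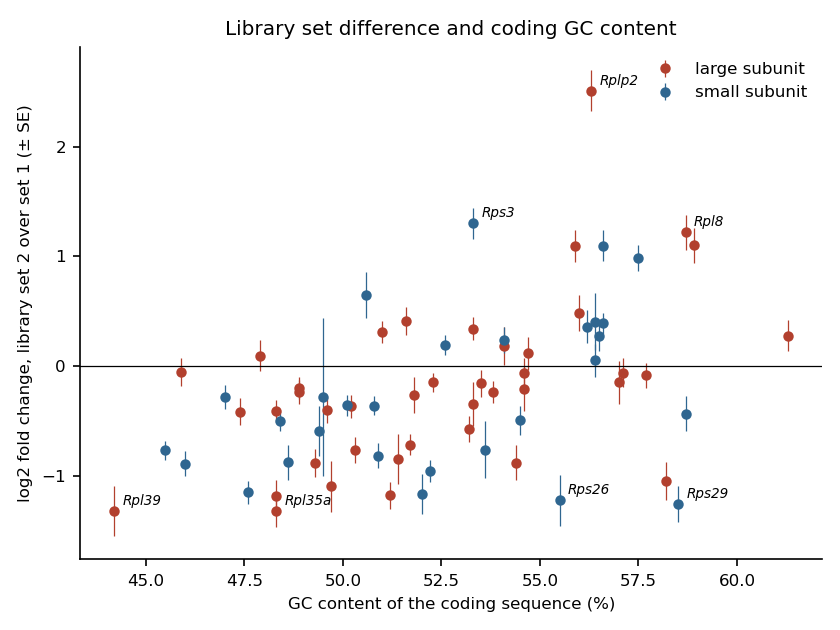
Log2 fold change of library set 2 over set 1 (± SE) for 70 ribosomal protein genes against the GC content of the coding sequence. Points rise with GC content (Spearman's rho 0.48), with Rps26 and Rps29 below and Rps3 and Rplp2 above the others of similar GC content.

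Genes close to the members were described from lists. Among 7 tested genes encoding fused or paralogous ribosomal proteins, 0 passed at 45 and 135 min and 3 fell at 405 min with group only: Rpl22l1 (-2.46, adjusted p = 0.0379), Rpl36al (-1.36, adjusted p = 0.0288) and Rpl7l1 (-0.51, adjusted p = 0.00878), when 13.4% of all genes fell. With the set in the model, only Rpl7l1 of these passed at 405 min (-0.39, SE 0.11, adjusted p = 0.023), with 13.0% of all genes called. Of 18 other mRNAs with a TOP tract, mostly translation factors, 4 were higher and 1 lower at 405 min with group only, 5 of 18 against 23.4% of all genes. With the set, 0 passed at 405 min, and at 135 min, when 7.93% of all genes passed, Hnrnpa1 rose (0.93, adjusted p = 0.0355) and Tpt1 fell (-1.96, adjusted p = 0.0117). Both were at low levels, with Hnrnpa1 between 3.31 and 39.8 CPM and Tpt1 between 3.32 and 139 CPM over all samples. Cont replicate 3, which lay apart for many members, was the lowest sample for Hnrnpa1 and the highest for Tpt1. Of 8 tested chaperones of free ribosomal proteins, 1 was higher and 2 lower at 405 min with group only and 0 passed with the set, against the same 23.4% and 13.0% of all genes.

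Among 8 regulators of ribosome production and of TOP mRNA translation, Myc, a transcription factor that drives ribosome biogenesis, fell at 135 and 405 min. With group only it was the 1 regulator called at each of these times, against 1.46% and 23.4% of all genes. Myc measured 159, 180, 219, 128 and 116 CPM in cont, 129, 126 and 135 CPM at 45 min, 49.7, 58.4 and 55.9 CPM at 135 min, and 93.5, 77.3, 56.0 and 91.6 CPM at 405 min. All DD 135min and DD 405min samples lay below all cont samples. Its log2 fold change was -1.55 (SE 0.23, adjusted p = 0.0021) at 135 min and -1.15 (SE 0.20, adjusted p = 0.00191) at 405 min, and -1.52 (SE 0.21) and -1.25 (SE 0.22) with library set in the model. Larp1, which binds the TOP tract, and Eif4ebp1 and Eif4ebp2, which encode mTOR-regulated inhibitors of translation, were higher at 135 min with the set in the model. They read 0.54 (adjusted p = 0.0412), 0.51 (adjusted p = 0.0446) and 0.90 (adjusted p = 0.0202), and did not pass with group only. With the set in the model, 3 regulators were higher and 1 lower at 135 min, against 7.93% of all genes. From 135 to 405 min, in the fit with the set, Larp1 fell, by a log2 fold change of -0.78 (adjusted p = 0.0322), when 3.68% of all genes passed. With group only, 0 regulators passed in that comparison. Larp1 measured 514, 492.5 and 514.3 CPM at 135 min and 539.7, 485.2, 297.4 and 400.8 CPM at 405 min. The lowest of these was DD 405min replicate 3, the only DD 405min sample of set 1.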

How the data were processed

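Per the labels, total RNA was extracted and libraries were prepared with a NuGEN Encore kit. The study's methods also describe ligation-based libraries from poly(A) RNA, without naming which samples had which. Reads were aligned by the authors to mm9 and quantified against RefSeq on the DNAnexus platform, with the aligner not given in the sources used here. The deposited read counts were expected counts (between 8.71% and 15.6% of genes held a fraction) and were rounded to whole numbers for the tests. The deposited RPKM was used for levels. A deposited standard score (Z score) and a deposited ratio of RPKM to its root mean square were not used. Depth, 6652539 to 30258404 counts, limits the precision of low genes.

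The tests used edgeR 4.0.16 under R 4.3.3. Genes lacking a count in any sample were dropped, which left 10276, and the model had TMM factors, 1 quasi-likelihood fit to all 15 samples with group as the term, and Benjamini-Hochberg adjustment over all tested genes at 0.05. The study's methods name the same tool and also drop genes with no reads. DESeq2 1.42.0 was an alternative. CPM values are counts over the library total. The code was tested on simulated data. Mean log2 CPM used a prior count of 2. Coding GC content came from GENCODE vM1 on NCBIM37, the mm9 assembly, for 94.9% of tested genes. Library sets were split at the widest gap in the GC slope, and the first principal component (56% of the variance) separated the same samples, with set 1 at or below 0.3 and set 2 at or above 42.9. The lowest chi-square between replicates was 12.0 per degree of freedom, so none were duplicates. The members, gene lists and tests were chosen with earlier results of these data known. Named genes were members with fixed roles, members past the threshold, the 5 highest and 5 lowest by RPKM in cont, and the 5 with the widest library set difference. Rpl8, Rpl13, Rpl18, Rpl30 and Rps27 fall outside this rule and were named after their values were seen. Some genes are not reported here.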

Additional observations from a re-analysis of the deposited data

Results flagged for a closer look

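In cont and DD 405min, the samples of each of 37 named ribosomal protein genes, of the share of counts and of the subunit difference were screened for a sample far from the rest of its group, 78 groups in all, of which 10 had such a sample. Chance gives about 1 in 20 for independent groups picked without their values. These genes share the same libraries and some were named by their values, so that rate is no measure for this count. Cont replicate 2, the only cont sample of library set 2, stood apart for 5 genes. It was higher for Rplp2 (202 CPM, others 25.7 to 33.7), Rps2 (1669, others 633 to 815) and Rps3 (246, others 81.6 to 107). It was lower for Rpl31 (1869, others 2580 to 2737) and Rpl22 (494, others 1023 to 1215). Among the DD 405min samples, replicate 3, the only one of library set 1, was higher for Rpl35a (709, others 328 to 388) and Rps29 (1022, others 491 to 533). These 7 values follow the library sets, which cannot be told apart from the sample in either group. The other 3 did not follow them. Rpl11 was lower in DD 405min replicate 1 (877 CPM, others 963 to 967). Rps23 was higher in cont replicate 3 (4.35, others 0.80 to 1.13) and in DD 405min replicate 1 (3.25, others 0.93 to 1.31), on 29 and 44 counts.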

How the results depend on the processing

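No member passed at 45 or 135 min under any alternative run. At 405 min the count of 4 higher and 2 lower members with group only was 1 higher without a filter on low counts (3.64% of all genes), 4 lower with RLE factors (13.9%), and 9 higher and 10 lower with DESeq2 (14.0% and 19.2%). It was 0 higher and 0 lower with only the compared groups (7.94% of all genes) and with library set as a covariate (13.0%). The added fit with library set and without DD 405min replicate 3 also gave 0 higher and 0 lower, when 414 of 10276 genes passed. The added fit with library set and without cont replicate 3, chosen after seeing the data, gave 2 higher and 0 lower. Leaving out each replicate in turn gave between 0 and 15 higher and between 0 and 21 lower members at 405 min, with 9.33% to 48.5% of all genes called, and between 0 and 3 higher and 0 and 5 lower between 135 and 405 min (0.409% to 13.4% of all genes), the most without DD 405min replicate 3. That comparison of 135 with 405 min, with 0 members otherwise, gave 2 higher with DESeq2 (7.91% of all genes) and 7 higher and 9 lower with only the compared groups (16.6% and 12.3%). The cause of these shifts was not tested. Rps13 at 405 min read 0.014 within library set 2, against -1.05 with all samples. The replicate block gave 0 higher and 0 lower members in every comparison, also together with library set. Of all 10276 genes, the block alone called 0 at 45 min, 31 at 135 min, 800 at 405 min and 15 between 135 and 405 min. Together with library set it called 1, 621, 1228 and 214 in the same order. Deviations from the group mean correlated from -0.706 to 0.437 over 19 pairs of samples with the same replicate number. Library set was not removed from these deviations, and samples of 1 number can lie in different sets. The correlations therefore cannot decide whether the numbers pair the samples. The ribosomal protein share of counts was 8.04% in cont and 8.30% at 45 min with library set 2 only, and 9.40% at 405 min with set 1 only. As a share of the summed RPKM it was 23.7%, 23.7%, 24.3% and 22.5% in cont and at 45, 135 and 405 min. The large minus small subunit difference taken as a median over members was 0.15, 0.31, 0.27 and 0.28 in the same order. On log2 RPKM with a pseudocount of 1 it was 0.455 in cont and 0.56, 0.58 and 0.51 at 45, 135 and 405 min. Depth limits the 6 members under 10 CPM, of which 5 were not tested. The other, Rps23, passed between 135 and 405 min with only the compared groups (2.05, adjusted p = 0.0284) and without cont replicate 3 (2.06, adjusted p = 0.0426).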
